A study of Mus musculus with 60 samples.

Results

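The genes followed through whole blood were those of the Fc receptor system: Fcgr1, Fcgr3 and Fcgr4, which encode the ligand-binding chains of the activating IgG receptors, Fcgr2b, which encodes the inhibitory IgG receptor, Fcer1g, which encodes the signalling chain the activating receptors share, and Fcgrt, which encodes the heavy chain of the neonatal Fc receptor. They were matched by symbol and by Ensembl identifier to 6 of the 49315 genes in the count tables. All 6 had reads in all 60 mice and entered every test. The animals were male CD2F1 mice, 5 to 6 weeks old at purchase, in 10 groups of 6, and every mouse was gavaged for 6 days, 12 doses in all. Vehicle, a mixture of water, methylcellulose and polyvinylpyrrolidone, was given to the controls, and BIO 300, an oral formulation of synthetic genistein studied as a radiation countermeasure, was given at 50, 100 or 200 mg/kg. Blood was drawn from the inferior vena cava under isoflurane into RNA-stabilising tubes, either on Day 0 or on Day 1, which were 24 h and 48 h from the final dose. These 4 treatments at 2 times made 8 unirradiated groups. The other 2 groups, one given vehicle and one given BIO 300 at 200 mg/kg, received 9.2 Gy of total body irradiation (TBI) with cobalt gamma rays 24 h before they were sampled on Day 1.

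Fc receptors bind the constant part of antibodies and so couple antibody to the cells that carry them. The activating receptors on neutrophils, monocytes, macrophages and natural killer cells signal through the chain encoded by Fcer1g, whose immunoreceptor tyrosine-based activation motif (ITAM) is phosphorylated by Src-family kinases and then recruits the kinase Syk; in platelets the same chain serves the collagen receptor subunit encoded by Gp6. The inhibitory receptor is carried by B cells as well as by myeloid cells and by the sinusoidal endothelium of the liver, and its single immunoreceptor tyrosine-based inhibition motif (ITIM) recruits the phosphatase encoded by Inpp5d. The neonatal Fc receptor pairs with beta-2-microglobulin and returns endocytosed IgG and albumin to the circulation, among other sites in hepatocytes and endothelium.

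The 2 opposed signalling motifs are shown first because they separate the roles of the genes. They were read on the coding strand from the GENCODE coding sequence on GRCm38, with the tyrosine codons of the motif in capitals. The Fcer1g motif spans 45 coding bases of 2 coding exons between chr1:171229889-171230072 on the minus strand and holds 2 such codons, while the Fcgr2b motif takes 18 bases of 1 coding exon at chr1:170961071-170961088 on the minus strand and holds 1.
Fcer1g ITAM: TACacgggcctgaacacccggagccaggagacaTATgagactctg
Fcgr2b ITIM: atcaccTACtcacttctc

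Fcgr2b, Fcgr4, Fcgr3 and Fcer1g lie together on chromosome 1 (GRCm38), at chr1:170958617-170976547 (minus strand), chr1:171018920-171029761 (plus strand), chr1:171051174-171064935 (minus strand) and chr1:171229572-171234365 (minus strand). Fcgr1 is at chr3:96282909-96293969 and Fcgrt at chr7:45092990-45103851, both on the minus strand. The Fcgr3 and Fcgr2b transcripts share stretches: 166 of the 1733 windows of 50 bases in Fcgr3 transcripts (9.58%) also occurred in Fcgr2b transcripts (2.92% of 5685 windows). A read lying wholly within a shared stretch cannot be assigned to one of the pair by its sequence alone. No such window was shared between any other pair of the 6 genes. Antisense genes overlap Fcgr2b (Gm38204, at most 25 counts in any mouse) and Fcgrt (Gm45669, at most 11 counts).

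The 250 bases before the RefSeq start (GRCm38.p6) were taken. Those of Fcgr3 and Fcgr4, the members with the largest rises after irradiation, are printed in the direction of transcription. RefSeq starts can differ from the GENCODE gene ends. The Fcgr3 and Fcgr2b windows lie inside the gene spans given above, with 27 and 187 of their 250 bases in GENCODE exons. Capitals mark matches to GAGGAA, a sequence of the kind bound by the myeloid factor PU.1, here on the opposite strand as TTCCTC, and, in Fcgr4, to the interferon-stimulated response element. Both strands were searched.
Fcgr3, chr1:171059404-171059653, minus strand: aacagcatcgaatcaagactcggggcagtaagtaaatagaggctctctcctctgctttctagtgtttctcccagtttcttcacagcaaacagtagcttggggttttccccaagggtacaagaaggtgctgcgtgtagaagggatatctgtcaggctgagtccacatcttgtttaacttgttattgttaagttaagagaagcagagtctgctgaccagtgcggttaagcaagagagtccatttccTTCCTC
Fcgr4, chr1:171018676-171018925, plus strand: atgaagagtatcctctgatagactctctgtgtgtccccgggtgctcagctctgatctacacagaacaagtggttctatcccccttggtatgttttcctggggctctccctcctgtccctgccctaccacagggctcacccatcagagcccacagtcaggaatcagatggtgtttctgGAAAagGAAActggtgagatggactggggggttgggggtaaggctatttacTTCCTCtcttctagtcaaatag
GAGGAA was found in the windows of Fcgr1, Fcgr3 and Fcgr4, starting 55, 6 and 22 bases before the RefSeq start site. Another RefSeq entry of Fcgr3, not printed, had the match 15 bases before its start. The windows of Fcgr2b (largely exonic), Fcer1g and Fcgrt did not hold it, and 25.9% of 27025 genes with a promoter entry did. The interferon-stimulated response element was found in that of Fcgr4 alone among the 6 and in 3.46% of all genes, and TTCNNNGAA, of the kind bound by STAT factors, in that of Fcgr1 alone and in 8.13% of all genes. These matches describe the letters of the windows and their relation to the expression values was not tested.

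Libraries held 15099415 to 45589415 counts in genes. Fcgr1 had 15 to 406 counts per mouse and Fcer1g 607 to 7035. A set of 10 libraries, all from odd-numbered mice and spread over 9 of the 10 groups, stood apart in holding liver transcripts: each had at least 14 of 16 hepatocyte genes above 10 CPM (the count of a gene scaled to a fixed library total), with albumin (Alb) at 455 to 16050 CPM, whereas the other 50 libraries had at most 9 such genes and 43 of them had 0. Of these libraries 2 were irradiated vehicle mice (49 and 51) and 1 was an irradiated BIO 300 mouse (57). Results were therefore also computed without them.

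Levels were expressed as CPM after scaling the 60 libraries by the trimmed mean of M values (TMM). Relative to the merged length of all annotated exons, Fcer1g was the most abundant of the 6 in vehicle-treated mice on Day 0, at 62.7 ± 10.9 CPM per kilobase of exon (SD, n = 6). That length was 5790 bases from 7 transcripts for Fcgr2b and 1256 bases from 1 transcript for Fcgr4, so the order depends on the annotation. Fcgr3 stood at 17.3 ± 2.29, Fcgr4 at 6.2 ± 0.845, Fcgrt at 5.01 ± 2.35, Fcgr2b at 4.39 ± 0.476 and Fcgr1 at 0.843 ± 0.243 on the same scale. When the 10 groups were ordered by the mean CPM of each gene, neighbouring groups overlapped in all but 2 places: Fcgr3 in irradiated, BIO 300-treated mice lay wholly above the next group, unirradiated mice on Day 1 after 200 mg/kg, and Fcer1g in mice given 100 mg/kg on Day 1 lay wholly above mice given 200 mg/kg on Day 0.

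Across the groups the mean of each activating chain was highest in the irradiated mice, and of these chains Fcgr3 alone had no overlap between irradiated and unirradiated mice. Mean Fcgr3 on Day 0 was 30.0 ± 3.97 CPM with vehicle, 28.1 ± 3.8 at 50, 28.0 ± 5.96 at 100 and 29.8 ± 2.61 at 200 mg/kg (SD, n = 6 in every group), and on Day 1 it was 34.4 ± 6.48, 30.9 ± 4.8, 32.5 ± 5.07 and 35.2 ± 9.61 in the same order. With irradiation it was 159.9 ± 42.1 after vehicle and 130.4 ± 37.7 after BIO 300. The highest unirradiated mouse was at 52.2 CPM and the lowest irradiated one at 85.3 CPM. Mean Fcgr4 was 7.78 ± 1.06, 7.76 ± 2.7, 8.96 ± 2.14 and 9.66 ± 2.46 CPM on Day 0 and 9.06 ± 2.56, 9.01 ± 0.733, 9.8 ± 3.05 and 12.7 ± 8.45 on Day 1, by rising dose, against 45.4 ± 15.5 and 38.9 ± 13.7 in the irradiated groups, whose lowest mouse, at 15.6 CPM, was below the highest unirradiated mouse, at 29.2 CPM. Mean Fcgr1 stayed between 2.18 ± 0.63 and 3.39 ± 1.63 CPM in the unirradiated groups and was 5.42 ± 3.02 and 4.16 ± 0.806 in the irradiated ones, and the irradiated and unirradiated mice overlapped.

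The inhibitory receptor showed another order. Mean Fcgr2b was 25.4 ± 2.76, 28.4 ± 2.03, 25.7 ± 2.64 and 22.6 ± 2.29 CPM on Day 0 by rising dose, and 27.3 ± 1.35, 22.1 ± 2.91, 8.65 ± 1.49 and 8.13 ± 3.12 on Day 1. It was thus lowest after 100 and 200 mg/kg on Day 1, and the irradiated groups, at 26.0 ± 17.4 and 18.5 ± 7.87, were the most spread. Mean Fcer1g was 54.8 ± 9.48, 48.4 ± 7.37, 61.8 ± 6.89 and 69.8 ± 13.0 CPM on Day 0 and 64.2 ± 14.5, 61.7 ± 9.8, 161 ± 36.4 and 171 ± 19.1 on Day 1, and 214 ± 74.8 and 239 ± 69.6 with irradiation. Mean Fcgrt was 10.5 ± 4.93, 10.3 ± 1.25, 10.5 ± 3.14 and 8.12 ± 1.74 CPM on Day 0 and 10.6 ± 1.83, 9.78 ± 1.03, 7.91 ± 2.56 and 5.36 ± 3.15 on Day 1, with 23.1 ± 37.8 and 11.3 ± 17.8 in the irradiated groups, where the SD exceeded the mean.

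**Figure D1:**
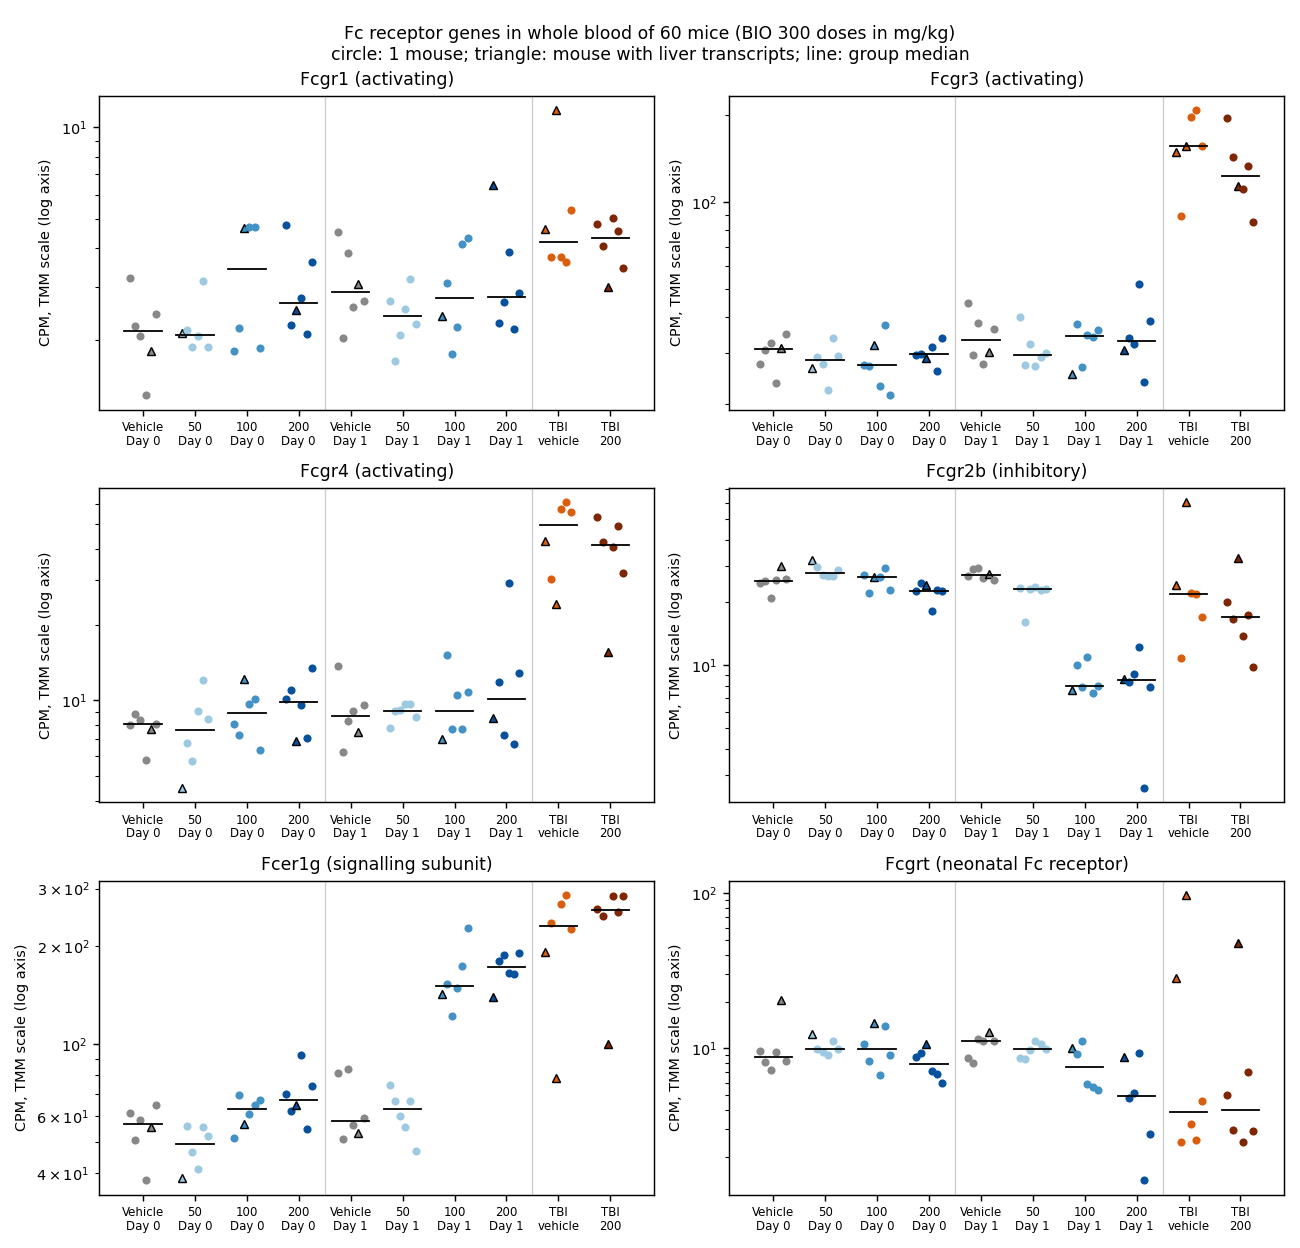
Level of each of the 6 genes in CPM (log axis, TMM scale over 60 libraries) for the 10 groups of 6 mice, with 1 point per mouse, triangles for mice with liver transcripts and a line at the group median. Fcgr3 and Fcgr4 are high in the 2 irradiated groups, Fcer1g in those and after 100 and 200 mg/kg on Day 1, and Fcgr2b is low after 100 and 200 mg/kg on Day 1; on the scale of total counts the Day 1 rise of Fcer1g is absent.

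A day after dosing ended (Day 0), no Fc receptor gene was a differentially expressed gene (DEG, adjusted p under 0.05 and absolute log2 fold change over 1) at any dose of BIO 300. In edgeR's quasi-likelihood test with Benjamini-Hochberg adjustment, 0% of all genes tested were DEGs at 200 mg/kg, 0% at 100 mg/kg and 4.5% at 50 mg/kg. DESeq2 likewise called 0 of the 6 at each dose. At an unadjusted p under 0.05 there was 1 gene of the 6 at 200 mg/kg (Fcer1g), 0 at 100 mg/kg and 1 at 50 mg/kg (Fcgr2b). Over all genes tested, 2145 of 23795, 726 of 24000 and 7588 of 24485 were under that p at 200, 100 and 50 mg/kg. The 3 doses were compared with the same vehicle-treated mice.

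Fcer1g ranged from 38.1 to 64.9 CPM with a median of 56.9 in vehicle-treated mice on Day 0. It ranged from 54.9 to 92.6 with a median of 67.4 after 200 mg/kg, a log2 fold change of 0.37 (SE 0.15, adjusted p = 0.546), and the groups overlapped. Fcgr2b ranged from 21.1 to 29.8 CPM with a median of 25.4 in the vehicle group and from 18.3 to 24.8 with a median of 22.8 after 200 mg/kg, again with overlap (log2 fold change -0.16, SE 0.09, adjusted p = 0.581). When the 50 mg/kg libraries were scaled by total counts in place of TMM, the median of all genes moved from 0.03 to 0.69, and all 6 receptor genes passed the adjusted p with log2 fold changes of 0.49 to 0.84; relative to the median of all genes they lay between -0.2 and 0.15.

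Between vehicle-treated mice on Day 1 and on Day 0, 0 of the 6 genes and 0% of all genes were DEGs by edgeR, and DESeq2 called 0 of the 6. Fcgr1 alone of the 6 had an unadjusted p under 0.05, with a log2 fold change of 0.51 (SE 0.23, adjusted p = 0.389). Over all genes tested, 3007 of 24375 had such a p.

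In mice given 100 or 200 mg/kg and sampled on Day 1, the inhibitory receptor and the signalling chain moved in opposite directions relative to TMM-scaled libraries. Fcgr2b was 3.02- and 3.18-fold lower than in vehicle-treated mice and Fcer1g 2.61- and 2.80-fold higher, at 100 and 200 mg/kg, while the 3 activating receptor chains did not pass the test at either dose. Of the 6 genes 2 were DEGs at each dose, beside 47.8% of all genes at 200 mg/kg and 48.8% at 100 mg/kg. Both doses were compared with the same 6 vehicle-treated mice.

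Fcgr2b was at 25.7 CPM in the lowest, 27.1 in the median and 29.1 in the highest vehicle-treated mouse on Day 1. It was at 7.38, 7.94 and 11.0 CPM (lowest, median and highest) after 100 mg/kg and at 2.6, 8.49 and 12.2 CPM after 200 mg/kg. Every mouse of both dose groups thus lay below every vehicle-treated mouse. The log2 fold change was -1.60 (SE 0.12, adjusted p = 1.07e-07) at 100 mg/kg and -1.67 (SE 0.24, adjusted p = 2.99e-05) at 200 mg/kg. Whole blood was sequenced, so fewer cells of a type and less RNA per cell cannot be told apart in these values.

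Fcer1g was at 51.2, 57.8 and 83.8 CPM in the lowest, median and highest vehicle-treated mouse. It was at 122, 150.3 and 227 CPM after 100 mg/kg and at 139, 172 and 190.0 CPM after 200 mg/kg, with every treated mouse above every vehicle-treated mouse. Its log2 fold change was 1.39 (SE 0.17, adjusted p = 6.26e-06) at 100 mg/kg and 1.49 (SE 0.14, adjusted p = 5.5e-07) at 200 mg/kg. Without the libraries that held liver transcripts the 4 changes were -1.54 and -1.67 for Fcgr2b and 1.39 and 1.51 for Fcer1g, all past the test.

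This rise depended on the scale. Without TMM, the median change over all genes went from -0.38 to -1.76 at 100 mg/kg and from -0.48 to -1.96 at 200 mg/kg on the log2 scale. With total counts Fcer1g stood at -0.03 and -0.06, a mean of 88.3 CPM after 200 mg/kg beside 92.0 in vehicle-treated mice, and did not pass the test (adjusted p = 0.898 and 0.753). Fcgr2b fell further with total counts, by 2.99 and 3.17. Measured against the median of all genes the scalings gave like values: Fcer1g was 1.77 and 1.97 above that median with TMM and 1.73 and 1.90 above it with total counts, and Fcgr2b was 1.22 and 1.19 below it with TMM and 1.23 and 1.21 below it with total counts (100 and 200 mg/kg in each pair).

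Fcgr3, whose product is the low-affinity activating receptor of myeloid and natural killer cells, was at 27.5, 33.3 and 44.7 CPM in the lowest, median and highest vehicle-treated mouse on Day 1. After 200 mg/kg it was at 23.7, 33.0 and 52.2 CPM, overlapping throughout, with a log2 fold change of 0.11 (SE 0.18, adjusted p = 0.589), and after 100 mg/kg the change was -0.02 (SE 0.14, adjusted p = 0.914). Fcgr4, found on neutrophils and patrolling monocytes, was at 6.24, 8.68 and 13.7 CPM in vehicle-treated mice and at 6.72, 10.1 and 29.2 CPM after 200 mg/kg, with mouse 46 far above the others (log2 fold change 0.58, SE 0.33, adjusted p = 0.138). Fcgr1, the high-affinity receptor, was at 2.04, 2.87 and 4.52 CPM in vehicle-treated mice and changed by 0.20 (SE 0.29, adjusted p = 0.561) at 200 mg/kg. With total counts all 3 activating chains passed the test in the downward direction at both doses, between -0.92 and -1.42, which was 0.34 to 1.04 above the median of all genes.

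Fcgrt, the neonatal receptor, was at 8.01, 11.2 and 12.8 CPM in the lowest, median and highest vehicle-treated mouse on Day 1 and at 1.41, 4.96 and 9.28 CPM after 200 mg/kg. Of the 6 treated mice 4 lay below all vehicle-treated mice. Its log2 fold change of -0.90 (SE 0.34, adjusted p = 0.032) passed the adjusted p but not the fold threshold, and 63.5% of all genes passed that p. The call was lost in 5 of 12 fits that each left out 1 mouse (mouse 27, 28, 44, 45 or 48), with adjusted p up to 0.0687, it became a DEG at -1.02 (SE 0.32, adjusted p = 0.0119) without the liver libraries, and at 100 mg/kg the change was -0.36 (SE 0.20, adjusted p = 0.134).

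**Figure D2:**
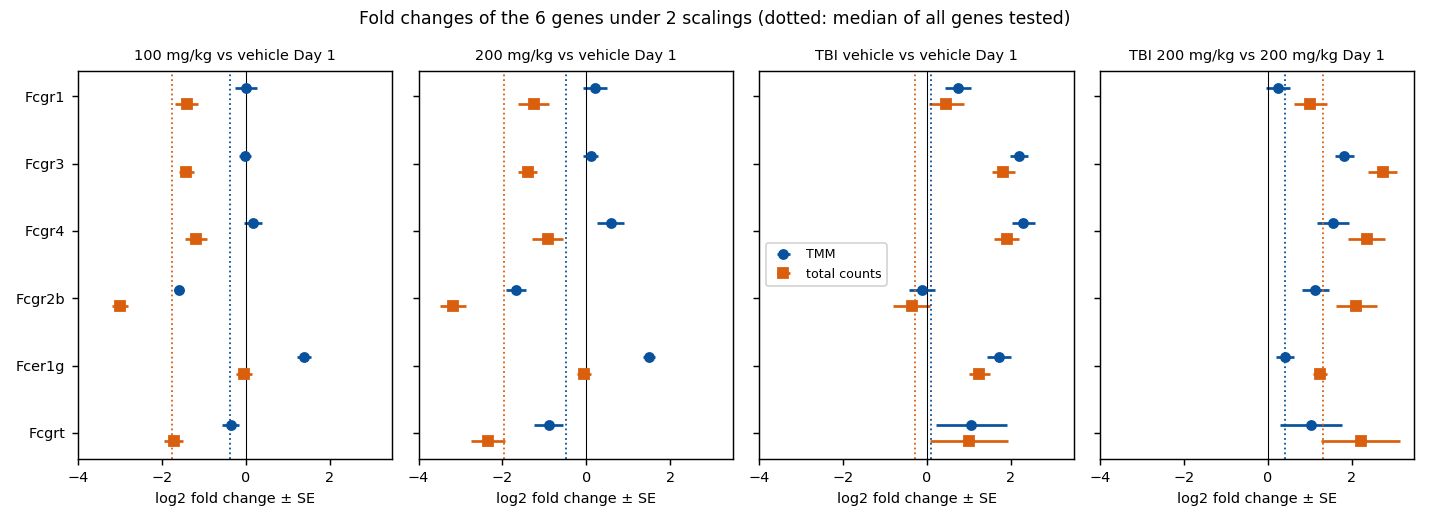
Log2 fold change with its standard error (horizontal axis) for the 6 genes in 4 comparisons of 6 against 6 mice, from libraries scaled by TMM (circles) or by total counts (squares), with the median of all genes dotted. Fcer1g after 100 and 200 mg/kg moves from a rise with TMM to about 0 with total counts, Fcgr2b stays low under both, and Fcgr3 and Fcgr4 stay high after irradiation under both.

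Several lists of other blood cell transcripts moved on Day 1, when 47.8% (200 mg/kg) and 48.8% (100 mg/kg) of all genes were DEGs. All 6 red cell markers were higher DEGs at both doses, and their summed level was 78488 to 116776 CPM in vehicle-treated mice, 316222 to 584269 after 100 mg/kg and 275579 to 622548 after 200 mg/kg. With total counts 2 of the 6 were higher at each dose. All 8 T cell markers were lower DEGs at both doses on either scale, with summed levels of 354 to 449, 76.5 to 163 and 46.9 to 197 CPM. All 8 B cell markers were lower DEGs at both doses, and their summed level was 819 to 1265 CPM in vehicle-treated mice, 228 to 559.8 after 100 mg/kg and 133 to 446 after 200 mg/kg. All 7 platelet markers were higher DEGs, and their summed level was 1893 to 3824, 14382 to 32517 and 13776 to 24134 CPM in the same 3 groups, and all 7 were higher with total counts too. Ptprc, the pan-leukocyte gene, changed by -1.67 (SE 0.20, adjusted p = 6.05e-06) at 100 mg/kg and -1.5 (SE 0.22, adjusted p = 3.67e-05) at 200 mg/kg. No marker of these lists was at 0 in all mice, and the part of these cells in the changes of Fcgr2b and Fcer1g was not tested.

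At 50 mg/kg on Day 1, 0 of the 6 genes and 0% of all genes were DEGs by edgeR, and DESeq2 called 0. Fcgr2b was the 1 gene of the 6 with an unadjusted p under 0.05, beside 4458 of all 24118 genes tested. It was at 16.2, 23.2 and 23.6 CPM in the lowest, median and highest mouse, all below the vehicle-treated mice. The log2 fold change was -0.30 (SE 0.09, adjusted p = 0.119), and it passed in DESeq2, without reaching the fold threshold (-0.27, adjusted p = 0.0196).

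Whether the dose effects differed between days was tested as an interaction in the 4 groups concerned. At 200 mg/kg the Day 1 effect differed from the Day 0 effect by -1.5 on the log2 scale for Fcgr2b (SE 0.26, adjusted p = 5.97e-05) and by 1.14 for Fcer1g (SE 0.21, adjusted p = 0.00012), and these 2 of 6 were called beside 36.7% of all genes. At 100 mg/kg the differences were -1.63 for Fcgr2b (SE 0.14, adjusted p = 1.51e-08) and 1.21 for Fcer1g (SE 0.22, adjusted p = 8.91e-05), beside 42% of all genes. At 50 mg/kg 0 of 6 were called beside 7.69% of all genes by edgeR, although Fcgr2b, like 17.5% of all genes, passed the adjusted p, with a difference of -0.47 (SE 0.11, adjusted p = 0.00253). With total counts Fcer1g turned to -0.15 at 200 mg/kg and -0.28 at 100 mg/kg.

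After total body irradiation 2 of the 3 activating chains and the signalling chain rose. In irradiated, vehicle-treated mice Fcgr3 was 4.56-fold, Fcgr4 4.94-fold and Fcer1g 3.29-fold above unirradiated vehicle-treated mice on Day 1. Fcgr2b did not pass the test, and Fcgrt was high in the mice whose libraries held liver transcripts and low in the others. Of the 6 genes 3 were DEGs, all of them higher, beside 36% of all genes as DEGs in either direction and 19.6% as higher ones.

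Fcgr3 was at 89.7 CPM in the lowest, 157 in the median and 209 in the highest irradiated vehicle-treated mouse, above the 27.5 to 44.7 CPM of the unirradiated mice without overlap. This was a log2 fold change of 2.19 (SE 0.21, adjusted p = 1.11e-05). Fcgr4 was at 24.1, 49.6 and 61.1 CPM, again above all unirradiated mice, with a log2 fold change of 2.30 (SE 0.27, adjusted p = 3.79e-05). With total counts the changes were 1.82 and 1.90 and both stayed past the test.

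Fcer1g was at 78.3, 230.4 and 287 CPM in the lowest, median and highest irradiated mouse. Of the 6 mice 5 lay above all unirradiated mice, and mouse 51, whose library held the most albumin transcripts, fell within their range. The log2 fold change was 1.72 (SE 0.28, adjusted p = 0.000362), and 1.97 (SE 0.19, adjusted p = 8.03e-07) without the liver libraries. Fcgr1 was at 3.6, 4.2 and 11.4 CPM and overlapped the unirradiated mice, with a log2 fold change of 0.75 (SE 0.31, adjusted p = 0.0602). It passed the adjusted p in DESeq2 (0.87, adjusted p = 0.0187), with the filterByExpr filter (0.83, adjusted p = 0.029) and without mouse 25, 50 or 53, and was at 0.42 (SE 0.23, adjusted p = 0.129) without the liver libraries.

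Fcgr2b was spread widely after irradiation, at 10.8, 22.1 and 60.2 CPM in the lowest, median and highest mouse, beside 25.7 to 29.1 CPM in the unirradiated mice. Of the 6 irradiated mice 5 lay below that range and mouse 51 above it. The log2 fold change was -0.11 (SE 0.31, adjusted p = 0.78). Leaving out mouse 51 alone gave -0.51 (adjusted p = 0.0237), and leaving out all liver libraries gave -0.57 (SE 0.18, adjusted p = 0.0154). All 8 B cell markers were lower DEGs, beside 36% of all genes as DEGs in either direction. Their summed level was 55.6 to 141 CPM in these mice beside 819 to 1265 in the unirradiated ones. The part of these markers in the Fcgr2b level was not tested.

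Fcgrt was at 28.4 and 97.4 CPM in the irradiated vehicle-treated mice with liver transcripts (49 and 51) and between 2.47 and 4.56 CPM in the other 4, all below the 8.01 to 12.8 CPM of the unirradiated mice. The log2 fold change over all mice was 1.06 (SE 0.84, adjusted p = 0.305), and without the liver libraries it turned to -1.61 (SE 0.20, adjusted p = 9.15e-06). In 7 of the 9 groups with such a library, that library had the highest Fcgrt level of its group or, in the irradiated vehicle group, both had. The exceptions were the groups given 100 and 200 mg/kg on Day 1, where the liver library was within the range of the others. At 100 mg/kg mouse 39 was higher, at 11.2 CPM. It had 9 hepatocyte genes above 10 CPM and Alb at 121.1 CPM, under the cut used here. At 200 mg/kg mouse 46 was higher, at 9.28 CPM, and had 0 such genes.

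**Figure D3:**
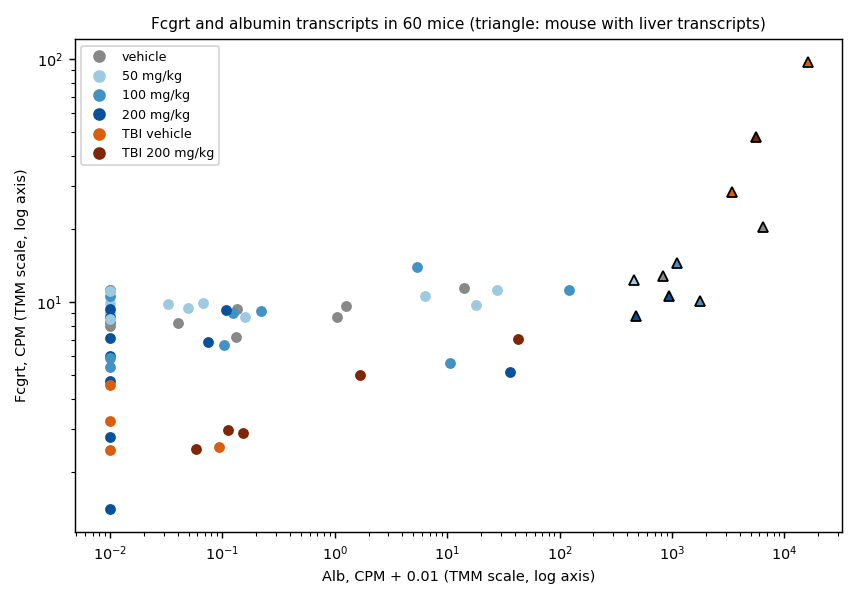
Fcgrt in CPM against Alb in CPM + 0.01 (both log axes, TMM scale) in the 60 mice, coloured by treatment, with triangles for the 10 mice with liver transcripts. The 3 irradiated mice with liver transcripts lie at 28.4, 97.4 and 47.6 CPM of Fcgrt, above all other mice, and the other irradiated mice lie at 2.47 to 7.04.

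Measured against vehicle-treated mice on Day 0, 4 of the 6 genes were DEGs in irradiated vehicle-treated mice, all higher, beside 26.9% of all genes in either direction and 15.1% higher. Fcgr3 changed by 2.5 on the log2 scale (SE 0.21, adjusted p = 1.29e-05), Fcgr4 by 2.65 (SE 0.27, adjusted p = 3.61e-05), Fcer1g by 2.08 (SE 0.30, adjusted p = 0.000264) and Fcgr1 by 1.34 (SE 0.29, adjusted p = 0.003). These are the same irradiated mice as above, set against other controls. Fcgr2b was at 0.06 (SE 0.29, adjusted p = 0.891) and Fcgrt at 1.06 (SE 0.83, adjusted p = 0.347), the latter -1.35 (SE 0.19, adjusted p = 2.38e-05) without the liver libraries. Leaving those out also brought Fcgr1 to 0.89 (SE 0.23, adjusted p = 0.00453), under the fold threshold, so that 3 genes were then higher DEGs and Fcgrt a lower one.

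Neutrophil and platelet transcripts were also higher after irradiation. All 8 neutrophil markers were higher DEGs against vehicle-treated mice on Day 1, with a median log2 fold change of 2.78, and their summed level was 1183 to 6671 CPM beside 434 to 706. Of 6 classical monocyte markers 3 were higher and 1 lower, and 2 of 7 patrolling monocyte markers were lower. Over all genes tested in this comparison 36% were DEGs, 4920 of 25146 higher and 4122 lower. All 7 platelet markers were higher, with summed levels of 3962 to 27548 beside 1893 to 3824 CPM, and 6 of 7 natural killer cell markers were lower. Ptprc changed by 0.19 (SE 0.28, adjusted p = 0.58). The part of these cell types in the rise of Fcgr3, Fcgr4 and Fcer1g was not tested.

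Between the irradiated groups, BIO 300 at 200 mg/kg and vehicle, 0 of the 6 genes and 0% of all genes were DEGs by edgeR. DESeq2 called 0 of the 6. At an unadjusted p under 0.05 there were 0 of the 6, beside 688 of all 24916 genes tested. Fcgr3 was at 85.3, 123 and 196 CPM in the lowest, median and highest irradiated, BIO 300-treated mouse, overlapping the irradiated vehicle-treated mice (log2 fold change -0.34, SE 0.23). Fcgr4 was at 15.6, 41.5 and 53.7 CPM (-0.28, SE 0.30) and Fcer1g at 100, 257 and 285 CPM (0.09, SE 0.30). Fcgr2b was at 9.78, 17.1 and 32.8 CPM (-0.53, SE 0.41) and Fcgr1 at 3.0, 4.33 and 5.05 CPM (-0.44, SE 0.31). Fcgrt was at 2.5, 4.0 and 47.6 CPM, the last in mouse 57 with liver transcripts. All 6 adjusted p were 1.0, and standard errors of 0.23 to 1.11 leave differences of that order undetectable with 6 mice per group.

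Against unirradiated mice given the same 200 mg/kg, the irradiated, BIO 300-treated mice had 3 DEGs among the 6, all higher, beside 20.6% of all genes in either direction and 14.9% higher. Fcgr3 changed by 1.83 on the log2 scale (SE 0.22, adjusted p = 0.000112) with no overlap between groups. Fcgr4 changed by 1.56 (SE 0.38, adjusted p = 0.00858), with 5 irradiated mice above all unirradiated ones and mouse 57 within their range. Fcgr2b changed by 1.14 (SE 0.33, adjusted p = 0.0222), from a median of 8.49 to 17.1 CPM, again with 5 of 6 mice above the unirradiated range, and by 0.89 (SE 0.28, adjusted p = 0.0175), under the fold threshold, without the liver libraries. Fcer1g changed by 0.41 (SE 0.22, adjusted p = 0.173), equal to the median of all genes, and by 0.72 (adjusted p = 0.000161) without mouse 57. With total counts it was a DEG at 1.24 (adjusted p = 0.00014), beside a median of all genes of 1.31. Fcgr1 changed by 0.24 (SE 0.29, adjusted p = 0.556), and by 0.59 (SE 0.22, adjusted p = 0.045) without the liver libraries. In these mice 7 of 8 neutrophil markers were higher DEGs, with summed levels of 1545 to 6154 CPM beside 431 to 971, and Ptprc changed by 1.55 (SE 0.30, adjusted p = 0.00213). The part of these cells in the receptor values was not tested.

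The effect of 200 mg/kg on Day 1 differed between irradiated and unirradiated mice for 2 of the 6 genes, beside 29.6% of all genes. For Fcer1g the difference was -1.17 on the log2 scale (SE 0.33, adjusted p = 0.00966), beside effects of 0.09 in irradiated and 1.49 in unirradiated mice in their own fits, and for Fcgr2b it was 1.36 (SE 0.50, adjusted p = 0.0398). Scaling by total counts put the Fcer1g difference at 0 (adjusted p = 1.0) while the median of all genes moved from 0.60 to 1.68. For Fcgrt it was 0.08 (SE 1.20, adjusted p = 0.986), and 1.55 (SE 0.49, adjusted p = 0.012) without the liver libraries.

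Ratios between genes of one library do not depend on how libraries are scaled, and were taken as the log2 ratio of counts, with 0.5 added to each, to the inhibitory gene. They are described without a test, and as lengths differ only their change between groups is read. The ratio of Fcgr3 to Fcgr2b was 0.04 to 0.74 in vehicle-treated mice on Day 1, 1.66 to 2.20 after 100 mg/kg and 1.82 to 3.16 after 200 mg/kg, so both dose groups lay above the vehicle group. It was 1.38 to 3.25 in irradiated vehicle-treated mice and 1.79 to 3.28 in irradiated, BIO 300-treated mice, also above it. With TMM, Fcgr2b was the gene of this pair that had passed the test after BIO 300, and Fcgr3 was the one after irradiation. With total counts Fcgr3 passed after BIO 300 as well, at -1.42 (100 mg/kg) and -1.40 (200 mg/kg), so that attribution depends on the scale.

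The ratio of Fcer1g to Fcgr2b was 0.83 to 1.60 in vehicle-treated mice on Day 1, 3.75 to 4.83 after 100 mg/kg and 3.75 to 5.95 after 200 mg/kg. In irradiated vehicle-treated mice it was 0.38 to 4.45, the lowest being mouse 51. For Fcgr4 the ratio was -2.20 to -0.97 in vehicle-treated mice, -0.12 to 0.59 after 100 mg/kg, -0.32 to 1.35 after 200 mg/kg and -1.32 to 1.72 in irradiated vehicle-treated mice, so that the irradiated group alone of these overlapped the vehicle group. Mean ratios differed from the vehicle group by 1.94 for Fcgr1, 1.89 for Fcgr3, 2.21 for Fcgr4 and 3.31 for Fcer1g after 200 mg/kg.

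Taken against Ptprc in the same library, Fcgr2b differed from vehicle-treated mice by 0.13 after 100 mg/kg and -0.22 after 200 mg/kg on the log2 scale, with overlapping groups. Fcgr3 differed by 1.72 and 1.67, Fcgr4 by 1.90 and 2.00, Fcgr1 by 1.73 at both doses and Fcer1g by 3.12 and 3.09, all without overlap. Ptprc itself changed by -1.67 (100 mg/kg) and -1.5 (200 mg/kg) with TMM, so a gene that did not change on that scale also gains in this ratio. Fcgr1, Fcgr3 and Fcgr4 did not pass the test at either dose on that scale. The share of all genes without overlap in this ratio was not computed. For Fcgr2b the vehicle group lay between -4.77 and -4.35. After 100 mg/kg 2 mice were above that range and none below it, and after 200 mg/kg 1 was above and 3 were below. In irradiated vehicle-treated mice the differences were 2.09 for Fcgr3, 2.19 for Fcgr4, 1.56 for Fcer1g and -0.38 for Fcgr2b. Mouse 51 was at -2.35 for Fcgr2b and the other 5 irradiated mice at -5.73 to -4.70. Without the liver libraries, which leaves 4 irradiated and 5 vehicle-treated mice, the Fcgr2b difference was -1.05 with no overlap, and those of Fcgr3, Fcgr4 and Fcer1g were 1.77, 2.05 and 1.57.

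**Figure D4:**
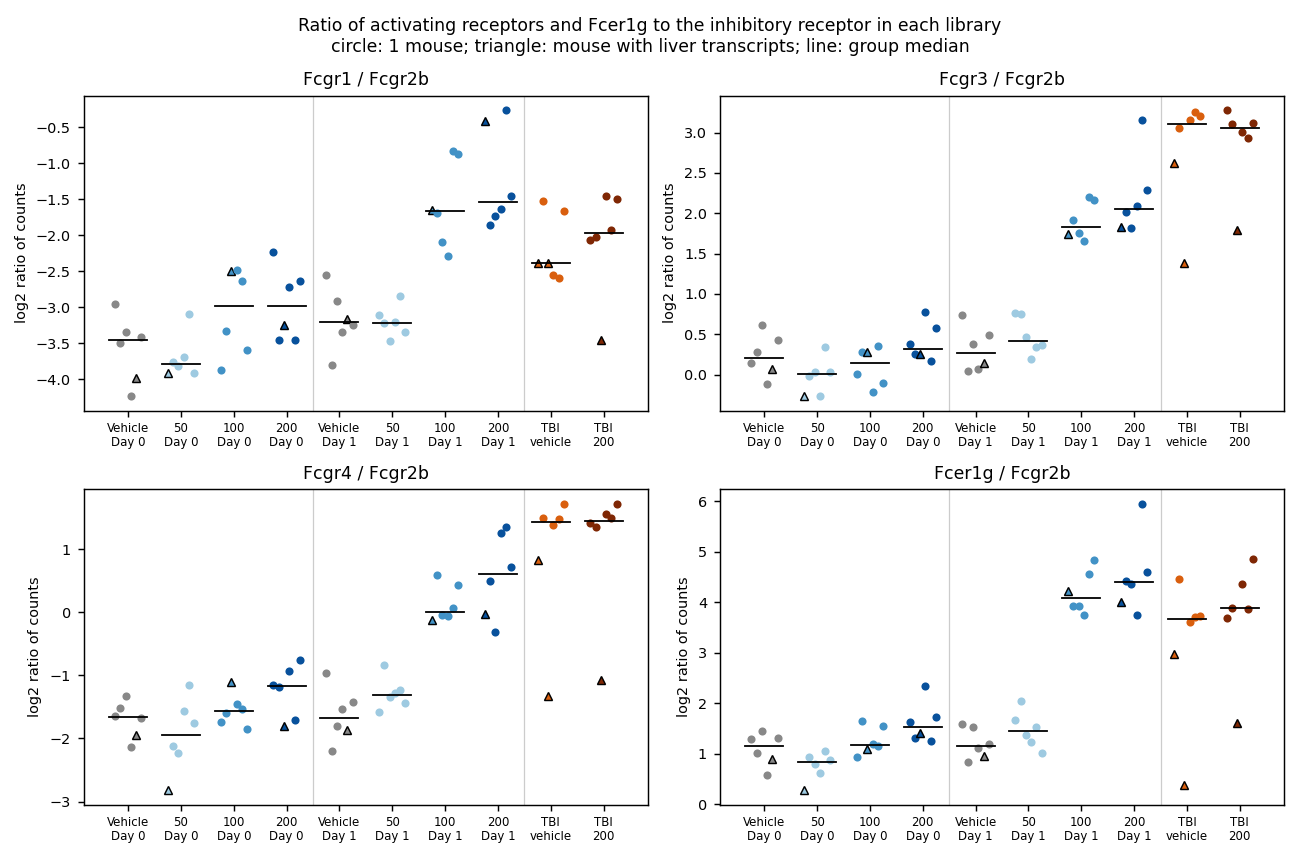
Log2 ratio of the counts of Fcgr1, Fcgr3, Fcgr4 and Fcer1g to those of Fcgr2b in each library for the 10 groups, with 1 point per mouse, triangles for mice with liver transcripts and a line at the group median. All 4 ratios lie above the Day 1 vehicle group in every mouse given 100 or 200 mg/kg on Day 1, and the lowest irradiated points for Fcgr3, Fcgr4 and Fcer1g are mice with liver transcripts.

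Genes that act with these receptors were read from lists of related receptors and of signalling partners. A list of 14 further genes held Fc receptor and Fc receptor-like genes and also B2m. In irradiated vehicle-treated against vehicle-treated mice on Day 1, 1 was a higher and 8 were lower DEGs, beside 36% of all genes. The median log2 fold change of the list was -1.72 beside 0.09 over all genes. Fcer2a, the low-affinity IgE receptor of B cells, changed by -5.12 (SE 0.39, adjusted p = 3.19e-06), Fcrla by -4.39 (SE 0.29, adjusted p = 1.44e-06) and Fcmr, the IgM receptor, by -3.76 (SE 0.31, adjusted p = 4.6e-06). After 200 mg/kg on Day 1, 1 of 13 tested was higher and 6 were lower, beside 47.8% of all genes, with a median of -1.16 beside -0.48. After 100 mg/kg 1 of 14 was higher and 5 were lower, beside 48.8% of all genes. With total counts 0 were higher and 9 lower at each dose by edgeR, beside 68.6% (200 mg/kg) and 66.3% (100 mg/kg) of all genes. B2m, the partner chain of Fcgrt, was the higher one at both doses, at 1.59 (SE 0.17, adjusted p = 2.13e-06) and 1.48 (SE 0.18, adjusted p = 7.08e-06), and was at 0.03 and 0.07 with total counts.

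Of 15 genes of ITAM signalling, 7 were higher and 1 lower after irradiation, with a median of 0.88 beside 0.09 over all genes, of which 19.6% were higher DEGs and 36% DEGs in either direction. With total counts 4 were higher and 1 lower, beside 34.9% of all genes in either direction, with a median of 0.43. Among them the Src-family kinases Lyn and Fgr changed by 1.93 (SE 0.29, adjusted p = 0.000171) and 1.95 (SE 0.30, adjusted p = 0.000246), and Card9, the adaptor downstream of Syk, by 2.01 (SE 0.28, adjusted p = 0.000114). After 200 mg/kg on Day 1, 2 were higher and 3 lower, beside 47.8% of all genes as DEGs in either direction. The median there was 0.15 beside -0.48. Lyn changed by 2.25 (SE 0.15, adjusted p = 2.18e-08), the exchange factor Vav3 by 1.73 (SE 0.14, adjusted p = 1.46e-07) and Card9 by -1.58 (SE 0.25, adjusted p = 8.28e-05). At 100 mg/kg the counts were also 2 and 3, beside 48.8% of all genes, with a median of 0.06. The higher calls were lost with total counts, where 0 were higher and 11 lower at each dose by edgeR, with medians of -1.37 (200 mg/kg) and -1.34 (100 mg/kg). With that scaling 68.6% (200 mg/kg) and 66.3% (100 mg/kg) of all genes were DEGs. On that scale Lyn stood at 0.71 and Vav3 at 0.16 after 200 mg/kg.

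Of 7 genes of ITIM signalling, 1 was a higher DEG after irradiation, the phosphatase gene Ptpn11 at 1.82 (SE 0.29, adjusted p = 0.000318). Higher DEGs made up 19.6% of all genes in that comparison. Inpp5d, whose product binds the Fcgr2b motif, passed the adjusted p there without the fold (0.90, SE 0.23, adjusted p = 0.00717). After 200 mg/kg on Day 1, Ptpn11 changed by 2.62 (SE 0.18, adjusted p = 2.35e-08), the adaptor Dok1 by 1.31 (SE 0.11, adjusted p = 1.06e-07), which turned to -0.23 with total counts, and Dok3 by -1.14 (SE 0.18, adjusted p = 6.54e-05). In this list 2 genes were higher and 1 lower at each dose, beside 47.8% (200 mg/kg) and 48.8% (100 mg/kg) of all genes. With total counts 1 ITIM gene was higher and 4 were lower at 200 mg/kg, beside 68.6% of all genes. The same 3 were named at 100 mg/kg, with Ptpn11 at 2.5 (SE 0.24, adjusted p = 8.37e-07).

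In irradiated, BIO 300-treated against unirradiated 200 mg/kg mice, 5 ITAM genes were higher, with Card9 at 3.37 (SE 0.40, adjusted p = 0.0001) and Tyrobp, an ITAM adaptor related to Fcer1g, at 1.26 (SE 0.26, adjusted p = 0.00319). With total counts 10 ITAM genes were higher there. Higher DEGs made up 14.9% of all genes with TMM and 9100 of 23610 with total counts. Of the ITIM genes 1 was higher (5 with total counts), Dok3 at 1.77 (SE 0.31, adjusted p = 0.00108).

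The genes whose levels ran closest to each receptor were ranked by Pearson's r of log2(CPM + 1) over the 60 mice among 6738 genes with a mean of at least 10 CPM. The mice come from 10 groups, so r mixes differences between groups with those within them, and the r of deviations from group means is given second. Fcgr3 ran closest to Entpd1 (0.98, then 0.80), Tnfrsf1a (0.97, 0.84) and Bst1 (0.97, 0.78), and Fcgr4 to Cd300ld (0.96, 0.80), Rtp4 (0.95, 0.79) and Anxa2 (0.95, 0.78). Fcgr3 and Fcgr4 correlated with each other at 0.93 over all mice and 0.64 within groups.

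Fcer1g ran closest to Arrb2 (0.98, then 0.90), Glipr2 (0.98, 0.93) and Cd44 (0.98, 0.89), and Fcgr2b to Slc30a7 (0.95, 0.84), H13 (0.95, 0.82) and Diaph2 (0.95, 0.85). For Fcgr1 the values were lower, and the genes most like it included Grn at 0.64 and Agtrap at 0.62. Those most like Fcgrt included Cluh (0.94, 0.94) and Zcchc24 (0.93, 0.95).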

How the data were processed

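Whole-blood RNA of 60 mice was sequenced. The deposited tables hold raw counts of reads per gene, not normalized, which the authors made, per the labels and the study's methods, with Trimmomatic 0.36, STAR 2.5.2b and featureCounts of Subread 1.5.2 on GRCm38; the annotation release is not given in the sources used here. The labels describe poly(A) libraries, whereas the study's methods describe stranded total RNA with ribosomal and globin RNA removed, so it is unsettled which transcripts were enriched. Other deposited tables hold the authors' fold changes, p-values and normalized values; only their gene symbols were used. Groups come from the labels, and doses and times from the labels and the methods.

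Each comparison was fitted on its own 12 mice (24 for interactions) over all genes with at least 10 summed counts, with TMM factors and edgeR's quasi-likelihood test (edgeR 4.0.16, limma 3.58.1, R 4.3.3), Benjamini-Hochberg adjustment, and a DEG at adjusted p under 0.05 and absolute log2 fold change over 1. p-values are over separate animals. The scripts were tested on simulated data. Alternatives were DESeq2 1.42.0, total-count scaling, filterByExpr, a sum of at least 1 count, no fold threshold, leaving out each mouse, and leaving out the libraries with liver transcripts. The 11 pairwise comparisons and 4 interactions share groups.

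The named genes are the 6 receptors in every comparison, at most 3 genes per list with the smallest adjusted p, and the 3 genes most correlated with each receptor. Some of the latter are not reported here. The receptors, lists and tests were chosen with earlier results of these data known. Sequences come from RefSeq (GRCm38.p6 promoters) and the GENCODE annotation of GRCm38. No 2 libraries agreed within sampling noise: the smallest chi-square per gene between any pair was 11.3. Totals of 15099415 to 45589415 counts limit the precision of Fcgr1 most.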

Additional observations from a re-analysis of the deposited data

Results flagged for a closer look

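Each gene was examined for a mouse far from its group (the gap to the nearest mouse over the group's range, above Dixon's 95% critical value for 6 samples), and 10 of 60 gene and group pairs were flagged. Chance flags about 1 in 20 groups, and the genes of one library are not independent. Mouse 51, irradiated and given vehicle, stood apart with 11.4 CPM of Fcgr1, 60.2 of Fcgr2b and 97.4 of Fcgrt. Mouse 57, irradiated and given 200 mg/kg, stood apart with 100 CPM of Fcer1g, below its group, and 47.6 of Fcgrt, above it. Mouse 17, given vehicle and sampled on Day 0, had 20.4 CPM of Fcgrt. These 3 libraries were among the 10 set apart for liver transcripts. The other flagged mice were not among them. Mouse 46 after 200 mg/kg on Day 1 had 29.2 CPM of Fcgr4, and mouse 22 after 200 mg/kg on Day 0 had 18.3 CPM of Fcgr2b. Mouse 32 after 50 mg/kg on Day 1 had 16.2 CPM of Fcgr2b, and mouse 5 after 50 mg/kg on Day 0 had 3.13 CPM of Fcgr1. The library of mouse 5 still had 2 hepatocyte genes above 10 CPM, with Alb at 27.96 CPM.

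The effect of a dose differed between days, by the interaction test, for Fcgr2b at 200 mg/kg (-1.5 on the log2 scale), 100 mg/kg (-1.63) and 50 mg/kg (-0.47, short of the fold threshold), and for Fcer1g at 200 mg/kg (1.14) and 100 mg/kg (1.21). The effect of 200 mg/kg differed between irradiated and unirradiated mice for Fcgr2b (1.36) and Fcer1g (-1.17). The Fcer1g differences rest on the TMM scale.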

How the results depend on the processing

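Of 1242 alternative values of the 90 fold changes, 1189 kept their direction and side of the adjusted p of 0.05, 6 lost the call, 29 gained one and 18 reversed; 94 sign changes in which neither value passed (62 of them when 1 mouse was left out) count as kept. Scaling by total counts gave 16 of the reversals. At 50 mg/kg on Day 0 they were Fcgr3 (0.58), Fcer1g (0.49) and Fcgrt (0.69). At 200 mg/kg on Day 1 they were Fcgr1 (-1.25), Fcgr3 (-1.40), Fcgr4 (-0.92) and Fcer1g (-0.06), and at 100 mg/kg Fcgr1 (-1.41), Fcgr4 (-1.19) and Fcer1g (-0.03). In the interactions with day they were Fcgr3 (-1.15) and Fcer1g (-0.15) at 200 mg/kg, Fcgr3 (-1.47) and Fcer1g (-0.28) at 100 mg/kg, and Fcgr4 (-0.98) and Fcer1g (-0.89) at 50 mg/kg. Leaving out the libraries with liver transcripts turned Fcgrt negative after irradiation, to -1.61 against the Day 1 controls and -1.35 against those of Day 0.

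With total counts the number of the 6 genes called went from 2 to 4 at 200 mg/kg and from 2 to 5 at 100 mg/kg on Day 1, beside 68.6% and 66.3% of all genes called on that scale, and from 3 to 5 in irradiated against unirradiated 200 mg/kg mice, beside 39.5%. In the interactions it went from 2 to 4 (200 mg/kg by day, beside 54.9%), 2 to 5 (100 mg/kg by day, 59.9%), 0 to 4 (50 mg/kg by day, 40.2%) and 2 to 1 (200 mg/kg by TBI, 45.4%). Without the liver libraries it went from 2 to 3 at 200 mg/kg on Day 1 (52.1% of all genes), 3 to 4 after irradiation against Day 1 controls (44.2%), 3 to 2 in irradiated against unirradiated 200 mg/kg mice (26.7%) and 2 to 3 in the interaction with TBI (41.8%). Without a fold threshold it went from 0 to 1 in the 50 mg/kg by day interaction and from 2 to 3, with Fcgrt, at 200 mg/kg on Day 1. Leaving out each mouse gave 2 to 3 genes at 200 mg/kg on Day 1 and no change of count in the other 10 pairwise comparisons. Beyond the reversals that follow from the other scale, the cause was not tested. No paired analysis was possible because each mouse number occurs in 1 group only. With 6 mice per group and 15 to 406 counts of Fcgr1 per mouse, small changes of Fcgr1 were the least detectable.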

Other observations

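Besides the blood cell lists, a list of 6 genes of liver sinusoidal endothelium, a cell that carries Fcgr2b, was read. Of these 4 were higher DEGs after 200 mg/kg on Day 1, with a median log2 fold change of 2.38 beside -0.48 over all genes: Clec4g changed by 2.57 (SE 0.20, adjusted p = 6.07e-08), Oit3 by 2.25 (SE 0.21, adjusted p = 4.47e-07) and Bmp2 by 2.5 (SE 0.26, adjusted p = 1.52e-06, edgeR). With total counts these 3 stood at 1.04, 0.69 and 0.95, and of the 6 genes 2 were higher and 1 was a lower DEG. Over all genes 47.8% were DEGs with TMM and 68.6% with total counts. Without the libraries that held liver transcripts 4 were higher and 1 lower, beside 52.1% of all genes as DEGs. In the same mice Fcgr2b was lower and 0 of 16 hepatocyte genes were DEGs by edgeR. The summed level of those 16 ran from 0.344 to 2341 CPM in vehicle-treated mice and from 0.0 to 1617 CPM after 200 mg/kg. With that spread the test could hardly call them. At 100 mg/kg 0 of the 16 were DEGs with all mice, and 4 were higher without the libraries that held liver transcripts, beside 49.2% of all genes as DEGs. The relation between these values was not tested.

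Of 5 marker genes of basophils and mast cells, whose IgE receptor uses the Fcer1g chain, 3 were lower and 1 was higher after 200 mg/kg on Day 1: Cpa3 changed by -1.23 (SE 0.32, adjusted p = 0.00357) and Cd200r3 by -1.23 (SE 0.30, adjusted p = 0.00247), whereas Gata2 changed by 2.46 (SE 0.17, adjusted p = 2.43e-08). With total counts 0 were higher and 4 lower by edgeR, Gata2 standing at 0.91, and without the libraries that held liver transcripts 1 was higher and 1 lower. Over all genes 47.8% were DEGs with TMM, 68.6% with total counts and 52.1% without those libraries. Fcer1g in the mice given 200 mg/kg was higher on the TMM scale and level with controls on the scale of total counts.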
